A study of Mus musculus with 12 samples.

Results

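This account follows 7 long noncoding RNA genes, Malat1, Neat1, Miat, Meg3, Kcnq1ot1, Gas5 and Snhg11, out of the 32783 genes listed for either cell fraction of the mouse hippocampus. They were taken from a fixed list of names, and each symbol matched 1 Ensembl gene present in the counts of both fractions. Astrocytic adenosine A2A receptor expression was raised in CA1 of male C57Bl6/J mice by bilateral injection, at 2 months of age, of an adeno-associated virus (AAV2/9) carrying the receptor (AAV-A2A, AAV2/9_GfaABC1D-Bglob-A2AR-WPRE), and control mice received the same vector with GFP (AAV-GFP, AAV2/9-GfaABC1D-Bglob-GFP-WPRE). The GfaABC1D promoter directs expression to astrocytes, so every animal, controls included, carried a vector active in these cells. At 4 months, 2 months post-injection, hippocampal cells were pulled with magnetic beads against ACSA-2, an astrocyte surface antigen, and the cells left unbound were pulled with beads against CD11b, a microglial integrin. RNA was sequenced from 3 AAV-GFP (GFP-303, GFP-306, GFP-307) and 3 AAV-A2A (A2A-309, A2A-310, A2A-313) ACSA-2 libraries, and from 3 AAV-GFP (GFP-2328, GFP-2329, GFP-2331) and 3 AAV-A2A (A2A-2343, A2A-2344, A2A-2347) CD11b libraries. The animal numbers of the ACSA-2 and CD11b libraries differ, so the cell fraction and the set of animals cannot be told apart.

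Libraries held between 33937067 and 53206974 counts on genes. Adora2a, the gene carried by AAV-A2A, was between 23.2 and 25.6 CPM (counts of a gene scaled to a common library total) in ACSA-2 AAV-GFP libraries and between 655 and 927 CPM in ACSA-2 AAV-A2A libraries. In CD11b libraries it was 3.77 to 8.30 CPM in AAV-GFP and 15.0 to 45.2 CPM in AAV-A2A libraries, also without overlap. Summed astrocyte markers reached 24307 to 37987 CPM in ACSA-2 libraries and 277 to 527 CPM in CD11b libraries, and summed microglial markers were 289 to 545 CPM against 7881 to 64583 CPM. In the CD11b fraction, GFP-2328, GFP-2329 and A2A-2347 stood apart, with 73860, 61452 and 29801 CPM of summed choroid plexus markers against 11.4 to 99.9 CPM in the other 3. In such bulk samples, fewer cells of a type and less RNA per cell cannot be told apart.

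Long noncoding RNAs are transcripts that act without being translated. Malat1 and Neat1 are neighbouring nuclear RNAs. Malat1 gathers in nuclear speckles, where splicing factors are stored, and Neat1 is the scaffold on which paraspeckles assemble. Miat is another RNA retained in nuclear bodies and is best known from neurons. Meg3 and Kcnq1ot1 come from imprinted loci, Meg3 from the maternal copy of the Dlk1-Dio3 domain and Kcnq1ot1 from the paternal copy of the Kcnq1 domain, where it lies antisense within Kcnq1 and keeps neighbouring genes silent. Gas5 and Snhg11 are hosts of small nucleolar RNAs, which are cut from their introns while the spliced host RNA is left, in the case of Gas5 to be destroyed by nonsense-mediated decay.

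On the mm10 assembly (GRCm38) Malat1 (ENSMUSG00000092341, chr19:5795690-5802672, minus strand) and Neat1 (ENSMUSG00000092274, chr19:5824708-5845478, minus strand) lie 22036 bases apart. The longest annotated RNA of each is a single unspliced exon. Miat (ENSMUSG00000097767) lies at chr5:112213228-112229395 on the minus strand, Meg3 (ENSMUSG00000021268) at chr12:109541001-109571726 on the plus strand and Kcnq1ot1 (ENSMUSG00000101609) at chr7:143203458-143296549 on the minus strand. Gas5 (ENSMUSG00000053332) lies at chr1:161034422-161038539 and Snhg11 (ENSMUSG00000044349) at chr2:158375638-158386145, both on the plus strand. Reads that touched more than 1 gene were discarded by the counting, and the share of exonic bases shared with another annotated gene was 30.4% for Miat, 17.8% for Gas5 (the small nucleolar RNA genes inside it), 8.29% for Meg3 and 7.72% for Malat1, against 1.85% for Neat1, 1.56% for Snhg11 and 1.202% for Kcnq1ot1. No strand setting for the counting is given in the sources used here, so reads of Kcnq1ot1 and of Kcnq1, which runs through it in the opposite direction, cannot be separated with certainty.

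The A2A receptor couples to the G protein that raises cyclic AMP, and the factor CREB, activated by this messenger, binds the palindrome TGACGTCA or the shorter TGACG. The promoter windows below, each 250 bases before to 50 bases after a RefSeq start on GRCm38.p6, are those of 3 members that hold these letters, shown in capitals whichever strand they lie on. Windows were given for 6 of the 7 genes, Neat1 being the other. The palindrome stood at -57 from the start in Meg3 and at -46 in the Gas5 window with the match, while the shorter letters alone stood at -154, -45 and -3 in Malat1 and at -42 in Kcnq1ot1. Of 27025 genes with a window, 2.03% held the palindrome and 23.1% the shorter letters, both strands searched and the palindrome counted in both, so these are descriptions of the sequence and not binding sites. The order is Malat1 (chr19:5802623-5802922, minus), Meg3 (chr12:109540746-109541045, plus) and Gas5 (chr1:161034916-161035215, plus).
Malat1: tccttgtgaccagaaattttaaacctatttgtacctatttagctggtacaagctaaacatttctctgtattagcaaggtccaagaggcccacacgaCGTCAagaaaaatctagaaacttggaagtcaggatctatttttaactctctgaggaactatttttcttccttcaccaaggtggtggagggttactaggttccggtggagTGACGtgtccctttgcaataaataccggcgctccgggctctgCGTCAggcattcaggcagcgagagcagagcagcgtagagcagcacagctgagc
Meg3: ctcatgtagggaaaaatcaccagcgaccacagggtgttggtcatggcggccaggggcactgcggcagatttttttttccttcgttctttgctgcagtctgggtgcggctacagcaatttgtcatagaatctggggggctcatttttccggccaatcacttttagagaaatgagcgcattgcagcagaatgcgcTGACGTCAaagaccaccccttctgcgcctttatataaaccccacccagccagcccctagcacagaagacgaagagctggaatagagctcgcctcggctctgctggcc
Gas5: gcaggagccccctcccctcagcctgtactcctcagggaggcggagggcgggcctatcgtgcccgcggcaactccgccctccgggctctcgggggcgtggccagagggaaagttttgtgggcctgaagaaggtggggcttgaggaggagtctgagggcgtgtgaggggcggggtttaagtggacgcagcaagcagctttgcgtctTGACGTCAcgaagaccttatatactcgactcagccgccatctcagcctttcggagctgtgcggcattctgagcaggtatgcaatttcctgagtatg

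Full-length cDNA was made by priming on stretches of A, and Malat1 ends without a conventional poly(A) tail, the mature end being formed next to an A-rich tract encoded in the genome. The tract is shown because it is the single run of 10 or more A in the 6983-base annotated Malat1 RNA, 298 bases before its annotated end (bases 6634 to 6725 of the transcript, chr19:5795948-5796039, minus strand), with the run of 12 in capitals. Such runs were 0 in the longest annotated Neat1, Miat, Gas5 and Snhg11 RNAs, 6 in Meg3 and 10 in the 93092-base Kcnq1ot1.
Malat1 tract: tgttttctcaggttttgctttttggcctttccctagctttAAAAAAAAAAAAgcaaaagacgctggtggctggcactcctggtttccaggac

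The list is known for abundance, and in these libraries Malat1, Gas5 and Neat1 were its most abundant members by group mean. In ACSA-2 AAV-GFP libraries, Malat1 ranked 322 to 663 among 32703 genes per kilobase of annotated exon. Gas5 ranked 3372 to 4346 and Neat1 6678 to 7004 there. Per kilobase of annotated exon, Malat1 was the highest of the 7 in every group, with a mean of 129 ± 44.8 CPM per kb (SD, n = 3) in ACSA-2 AAV-GFP and 135 ± 22.8 in CD11b AAV-GFP libraries. Gas5 came next, at 11.4 ± 2.21 and 19.8 ± 2.96 CPM per kb in the same groups, followed by Neat1 at 4.04 ± 0.252 and 6.69 ± 4.37. Snhg11 (0.585 ± 0.267 and 0.598 ± 0.422 CPM per kb) and Meg3 (0.351 ± 0.157 and 0.543 ± 0.453) overlapped each other within their SD. Kcnq1ot1 (0.0961 ± 0.0372 and 0.182 ± 0.0805 CPM per kb) and Miat (0.0445 ± 0.0649 and 0.0654 ± 0.0507) were lowest. Miat was counted between 0 and 50 times per library, while the lowest count of any other member was 16. Exon lengths are the union over isoforms, so for Neat1, which has a short and a long form, the level per kilobase averages over both. Together the 7 genes took 0.0356% to 0.654% of a library's counts, and Malat1 alone was 50.1% to 95.6% of that share.

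**Figure D1:**
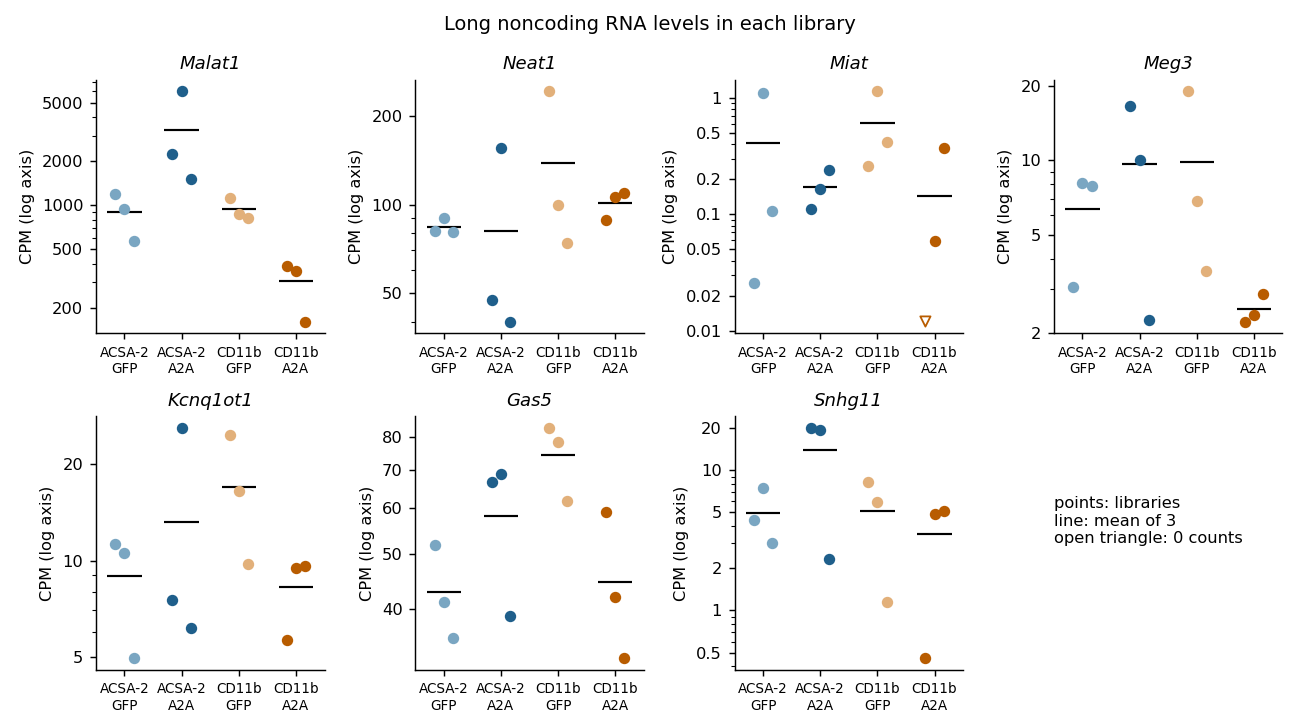
Level of each long noncoding RNA in the 12 libraries, in CPM with TMM scaling on a log axis. Points are libraries, lines are means of the 3 libraries of a group, and the open triangle is the CD11b AAV-A2A library with 0 Miat counts. Malat1 is between 1503 and 6017 CPM in ACSA-2 AAV-A2A libraries and between 161 and 388 CPM in CD11b AAV-A2A libraries.

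The first comparison asked which of these RNAs differed with the receptor vector in the ACSA-2 fraction. Malat1 was 1187, 948 and 567 CPM in the AAV-GFP libraries and 2255, 6017 and 1503 CPM in the AAV-A2A libraries, in the order in which the libraries are listed above. Every AAV-A2A library was above every AAV-GFP library, and A2A-310 was far above the other 2 of its group. The log2 fold change (FC) was 1.88 (standard error, SE, 0.479, 95% interval 0.81 to 2.95), a 3.68-fold difference, with an adjusted p of 0.0744 from edgeR, so Malat1 missed the threshold used for calls (a log2 FC beyond 0.32 in either direction at an adjusted p under 0.05). Its size depended on A2A-310, since the log2 FC was 1.09 (adjusted p = 0.198) without it and 2.21 (adjusted p = 0.0475) without A2A-313. Of 14 alternatives run, 2 called Malat1, that without A2A-313 and an edgeR fit that left no library out (adjusted p = 0.0130). A2A-310 also held 0.864% mitochondrial counts, against 0.195% to 0.341% in the other ACSA-2 libraries. Its share of counts on all long noncoding genes was the highest, 1.57% against 0.754% to 1.07%. This share includes Malat1, which took 0.625% of the counts of A2A-310. Without the members it was 0.918% against 0.616% to 0.820%. The 50 most abundant genes took 25.5% to 26.5% of counts in AAV-GFP and 28.3% to 31.6% in AAV-A2A ACSA-2 libraries, without overlap. The part of these measures in the result was not tested.

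None of the 6 members tested in ACSA-2 libraries was called, where 3.36% of 16451 genes were called in all (0.176% higher and 3.19% lower). Malat1 was the 1 member of 6 with an unadjusted p under 0.05, beside 13% of all genes, and the 1 of 6 without overlap between the groups, beside 19.4% of all genes. DESeq2 and limma-voom also called 0 of them. 5 of the 6 log2 FC lay above 0, with a median of 0.60 against 0.02 for all tested genes.

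Neat1, the neighbour of Malat1, was not separated by vector. It was 81.4, 90.0 and 80.5 CPM in AAV-GFP and 47.4, 156 and 40.1 CPM in AAV-A2A libraries, which lay both below and above the controls. Its log2 FC was -0.03 (SE 0.443, 95% interval -1.02 to 0.97, adjusted p = 0.993). The ratio of Malat1 to Neat1 counts, which no scaling between libraries affects, was 14.6, 10.5 and 7.05 in AAV-GFP and 47.5, 38.7 and 37.5 in AAV-A2A libraries. The ratio was thus 3.995-fold higher (geometric means) with no overlap, at an exact two-sided permutation p of 0.1, the smallest that 3 against 3 libraries can give, and A2A-310 lay within its group. Against Gas5 the Malat1 count was 22.9, 23.05 and 15.97 times as high in AAV-GFP and 33.8, 87.3 and 38.7 times as high in AAV-A2A libraries.

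**Figure D2:**
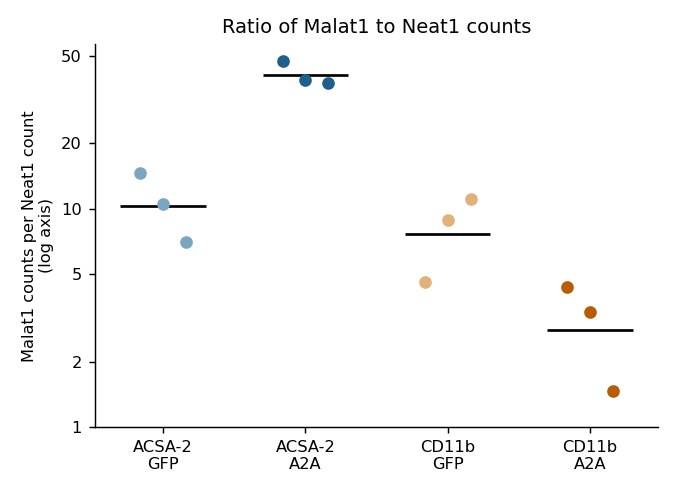
Malat1 counts per Neat1 count in each library on a log axis, with lines at the geometric means. The 3 ACSA-2 AAV-A2A libraries lie between 37.5 and 47.5, above the 7.05 to 14.6 of the ACSA-2 AAV-GFP libraries, and the CD11b AAV-A2A libraries lie between 1.47 and 4.39, below the 4.64 to 11.1 of their controls.

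Miat was at 0.0255 to 1.11 CPM in the ACSA-2 fraction, with 1 to 37 counts per library, and was left out of the test there by the filter on low counts. Of the imprinted RNAs, Meg3 was 3.06, 8.09 and 7.90 CPM in AAV-GFP and 16.6, 10.1 and 2.26 CPM in AAV-A2A libraries. A2A-313 was the lowest of the 6 and A2A-309 the highest, and the log2 FC of 0.62 (SE 0.657, adjusted p = 0.80) was not called. Kcnq1ot1 was 11.3, 10.6 and 4.97 CPM against 7.53, 26.0 and 6.19 CPM, with A2A-310 alone above the controls and a log2 FC of 0.59 (SE 0.570, adjusted p = 0.778).

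The hosts of small nucleolar RNAs were split by library in the same way. Gas5 was 51.8, 41.1 and 35.5 CPM in AAV-GFP and 66.6, 68.9 and 38.9 CPM in AAV-A2A libraries, with A2A-313 inside the control range and a log2 FC of 0.47 (SE 0.261, 95% interval -0.12 to 1.05, adjusted p = 0.523). Snhg11 was 4.42, 7.49 and 3.04 CPM against 19.98, 19.2 and 2.32 CPM. A2A-309 and A2A-310 were above all controls and A2A-313 below them, and the log2 FC was 1.49 (SE 0.695, adjusted p = 0.411). A2A-313 was thus the lowest AAV-A2A library for each of the 6 members tested.

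The same question in the CD11b fraction gave values on the other side. Malat1 was 1125, 880 and 826 CPM in the AAV-GFP libraries and 388, 358 and 161 CPM in the AAV-A2A libraries. The groups did not overlap, and the log2 FC was -1.70 (SE 0.450, 95% interval -2.77 to -0.63), a 3.25-fold difference, with an adjusted p of 0.28 in edgeR and 0.0334 in DESeq2. Malat1 was the 1 member called by DESeq2, which called 455 of the 30359 genes it was given, with no filter on low counts beforehand. Leaving out each library in turn gave -1.88 to -1.42, and none of these fits called it.

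edgeR called 0 of 16949 genes (0%) in the CD11b fraction, members included, and limma-voom 0. 3 of the 7 members, Malat1, Meg3 and Gas5, had an unadjusted p under 0.05, beside 16% of all genes (2704). 4 of the 7, these and Kcnq1ot1, had groups without overlap, beside 22.4% of all genes. The log2 FC was below 0 for 7 of 7 members, with a median of -1.07 against -0.05 for all tested genes.

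Meg3 was 19.1, 6.84 and 3.55 CPM in AAV-GFP and 2.22, 2.37 and 2.88 CPM in AAV-A2A libraries, the controls spreading 5.38-fold and the AAV-A2A libraries 1.30-fold. Its log2 FC was -2.02 (SE 0.711, 95% interval -3.71 to -0.33, adjusted p = 0.286) and shrank to -1.06 without GFP-2328. Kcnq1ot1 was 24.7, 16.5 and 9.74 CPM against 5.67, 9.47 and 9.63 CPM, with the lowest control just above the highest AAV-A2A library and a log2 FC of -1.07 (SE 0.494, adjusted p = 0.342). Without GFP-2328 it was -0.66.

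Gas5 was 83.0, 78.3 and 61.8 CPM in AAV-GFP and 59.1, 42.0 and 32.8 CPM in AAV-A2A CD11b libraries, and the log2 FC was -0.78 (SE 0.300, 95% interval -1.50 to -0.07, adjusted p = 0.295). The lowest control was just above the highest AAV-A2A library. Snhg11 overlapped, at 8.18, 5.97 and 1.15 CPM against 0.456, 4.88 and 5.12 CPM (log2 FC -0.57, SE 1.05, adjusted p = 0.811).

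Neat1 was 243, 99.7 and 74.3 CPM in AAV-GFP and 88.5, 106 and 110 CPM in AAV-A2A CD11b libraries. GFP-2328 alone was above the rest, and the log2 FC of -0.49 (SE 0.503, adjusted p = 0.653) became 0.23 without it. The Malat1 to Neat1 ratio was 4.64, 8.83 and 11.1 in AAV-GFP and 4.39, 3.38 and 1.47 in AAV-A2A libraries, 2.76-fold lower without overlap (exact two-sided permutation p = 0.1, the smallest possible). Miat was counted 14, 50 and 16 times in AAV-GFP and 0, 2 and 22 times in AAV-A2A libraries, and its log2 FC of -1.95 had an SE of 1.44 (adjusted p = 0.529). The library with 0 Miat counts, A2A-2343, allows up to 0.0855 CPM, counting error only.

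**Figure D3:**
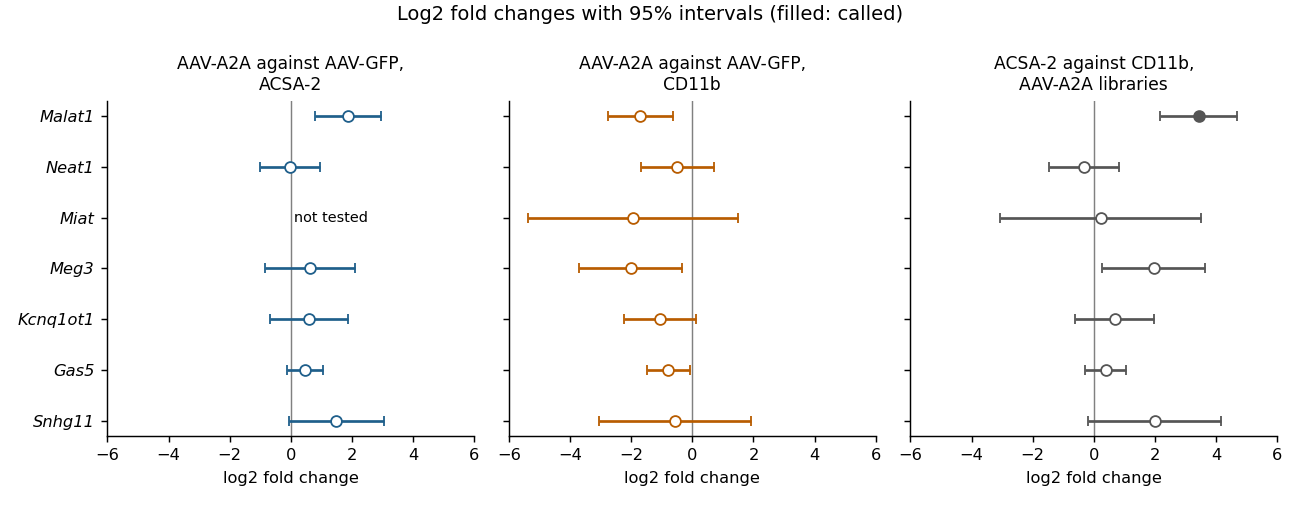
Log2 fold change of each long noncoding RNA with its 95% interval from edgeR, for AAV-A2A against AAV-GFP in each fraction and for ACSA-2 against CD11b among AAV-A2A libraries. Filled points were called. Malat1 is at 1.88 in ACSA-2 and -1.70 in CD11b, and at 3.43 between fractions, the 1 filled point.

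Other cell types moved with the vector groups in the CD11b libraries. Summed erythrocyte markers were 1016 to 5985 CPM in AAV-GFP and 56.7 to 253 CPM in AAV-A2A libraries, summed neuronal markers 32.8 to 246 against 12.5 to 23.4 CPM, summed ependymal markers 174.5 to 316.5 against 51.2 to 105.5 CPM and summed endothelial markers 786 to 2241 against 512 to 591 CPM, each without overlap. Choroid plexus markers were high in 2 AAV-GFP and 1 AAV-A2A library, and mitochondrial counts were 1.69% and 1.15% in GFP-2328 and GFP-2329 against 0.18% to 0.216% in the other 4. Ribosomal protein genes took 0.206% to 0.26% of counts in AAV-GFP and 0.104% to 0.189% in AAV-A2A CD11b libraries, without overlap. Of the erythrocyte, ependymal and endothelial markers none was at 0 in any CD11b library, and of the 12 neuronal markers 0 to 3 were. The part of these cells and measures in the CD11b results was not tested. With GFP-2328, GFP-2329 and A2A-2347 left out, which leaves 1 AAV-GFP library assumed to vary like the others, the log2 FC was -1.17 for Malat1, -0.65 for Meg3, -0.31 for Gas5 and -0.38 for Kcnq1ot1 (adjusted p = 1.00 for each). Neat1 and Snhg11 turned to 0.37 and 1.196. With a term for these libraries instead, Malat1 was at -1.87 (adjusted p = 0.138).

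**Figure D4:**
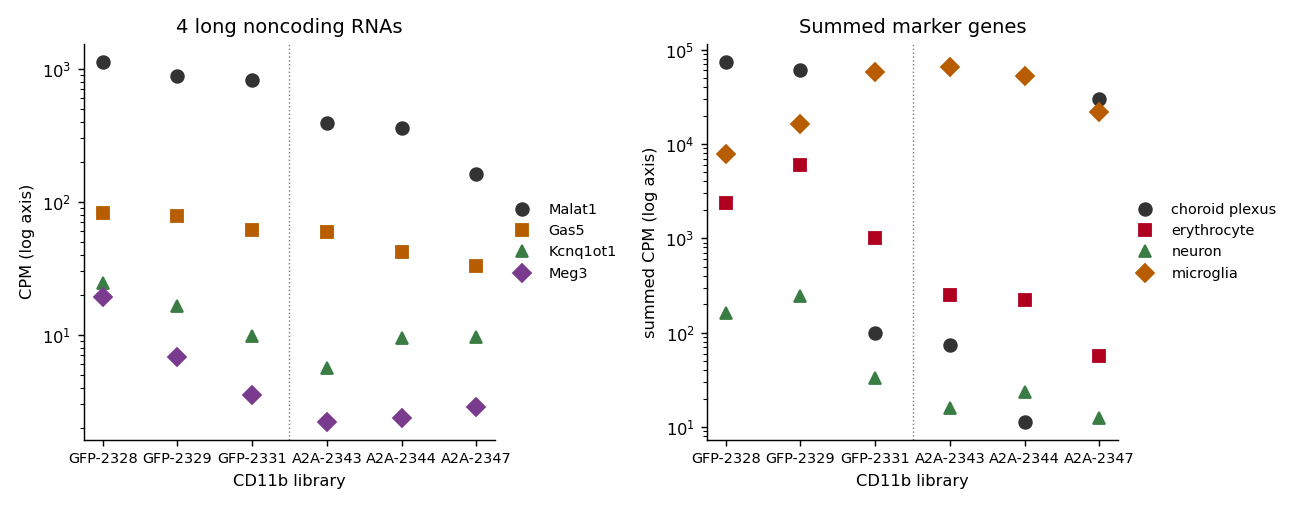
4 long noncoding RNAs (left) and summed marker genes of 4 cell types (right) in the 6 CD11b libraries, in CPM on log axes, with AAV-GFP libraries left of the dotted line. Malat1 is higher in the 3 AAV-GFP libraries (826 to 1125 CPM) than in the 3 AAV-A2A libraries (161 to 388 CPM), and erythrocyte markers are split in the same way while choroid plexus markers are high in GFP-2328, GFP-2329 and A2A-2347.

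The direction in CD11b libraries was shared by long noncoding genes at large. Of the 1513 genes with a long noncoding biotype in GENCODE tested there, 24.7% had a log2 FC above 0 and the median was -0.68, against 51.3% and 0.03 among 14494 protein-coding genes. Snhg11 has a protein-coding biotype in GENCODE and was counted in that class, unlike the other members. In ACSA-2 libraries 58.3% of 1539 long noncoding genes were above 0 with a median of 0.15, against 50.5% and 0.01 for 13979 protein-coding genes. The median of the class in CD11b libraries was -0.77 to -0.58 with each library left out in turn and -0.49 without the choroid plexus rich libraries. Over all 16 alternatives run, this median was -0.93 to -0.49. In ACSA-2 libraries it dropped from 0.15 to 0.0067 without A2A-310. The 95% interval of Malat1 held the class median in CD11b libraries and lay above it in ACSA-2 libraries.

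Whether the vector effect differed between the fractions was tested directly in a fit of all 12 libraries. The difference (the CD11b effect less the ACSA-2 effect) was -3.50 on the log2 scale for Malat1 (SE 0.757, 95% interval -5.15 to -1.84, adjusted p = 0.0621 with edgeR), and no member was called, where 0.403% of 18602 genes were (0.366% higher and 0.0376% lower). Malat1, Meg3 and Gas5 had an unadjusted p under 0.05, beside 19.6% of all genes. DESeq2, which called 1695 of the 25442 genes it was given, gave Malat1 an adjusted p of 5.08e-04. With edgeR Malat1 also passed without GFP-2331 (0.0277) or A2A-2343 (0.036), or with at least 10 counts required in every library (0.036). It missed the threshold under the other 16 of 20 alternatives. With a library left out the difference was -3.84 to -2.70, the latter without A2A-310 (adjusted p = 0.153), and without the choroid plexus rich libraries it was -2.998 with the highest adjusted p of all, 0.267. The difference was -1.18 for Gas5 (SE 0.426, adjusted p = 0.163), -2.58 for Meg3 (SE 1.07, adjusted p = 0.212), -1.60 for Kcnq1ot1 (adjusted p = 0.313), -2.02 for Snhg11 (adjusted p = 0.448), -0.40 for Neat1 (adjusted p = 0.803) and -0.78 for Miat (adjusted p = 0.873).

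Between fractions, no member was called among AAV-GFP libraries, where 26.7% of genes were (12.3% higher and 14.4% lower in ACSA-2). Gas5 was the 1 member with an unadjusted p under 0.05 (39.6% of all genes) and the 1 without overlap (48.1% of all genes). Malat1 had nearly the same level in both, 901 ± 313 CPM in ACSA-2 and 943 ± 160 CPM in CD11b libraries (SD, n = 3), with a log2 FC of ACSA-2 against CD11b of -0.07 (95% interval -1.21 to 1.07). Gas5 came nearest to the threshold, at 42.8 ± 8.29 against 74.4 ± 11.1 CPM without overlap (log2 FC -0.80, SE 0.302, adjusted p = 0.0714), and it passed when libraries were scaled by their totals alone (adjusted p = 0.0416). For the other members the log2 FC lay between -0.92 (Kcnq1ot1) and -0.04 (Snhg11), with adjusted p values of 0.266 to 0.983.

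Among AAV-A2A libraries, 1 of 7 members, Malat1, was called higher in ACSA-2, where 46% of genes were called, 21% higher and 25% lower. Malat1 and Meg3 had an unadjusted p under 0.05 (53.6% of all genes), and Malat1 alone had no overlap (58.2% of all genes). It was 3259 ± 2418 CPM in ACSA-2 against 302 ± 123 CPM in CD11b libraries, with a log2 FC of 3.43 (SE 0.572, 95% interval 2.18 to 4.68, adjusted p = 5.94e-04), and it stayed called under each of the 20 alternatives run, at log2 FC of 2.63 (without A2A-310) to 3.77. Meg3 followed at 9.66 ± 7.19 against 2.49 ± 0.347 CPM (log2 FC 1.95, SE 0.770, adjusted p = 0.0566) and passed under 6 of 20 alternatives, among them DESeq2 (adjusted p = 0.0168). It passed without A2A-313, GFP-2328 or GFP-2331. Snhg11 (log2 FC 1.99, SE 0.997, adjusted p = 0.123), Kcnq1ot1 (0.68, adjusted p = 0.362), Gas5 (0.38, adjusted p = 0.317), Miat (0.22, adjusted p = 0.918) and Neat1 (-0.32, adjusted p = 0.638) were not called. The vector effects and the fraction differences share libraries and are not separate lines of evidence. The alternatives for the fraction differences did not include leaving out the choroid plexus rich GFP-2328, GFP-2329 and A2A-2347 together.

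For each RNA the 4 groups could be put in order of mean level. Malat1 ran from CD11b AAV-A2A (302 CPM) through ACSA-2 AAV-GFP (901) and CD11b AAV-GFP (943), which did not differ beyond their spread, to ACSA-2 AAV-A2A (3259). Gas5 ran from ACSA-2 AAV-GFP (42.8 CPM) and CD11b AAV-A2A (44.6), which overlapped, through ACSA-2 AAV-A2A (58.2) to CD11b AAV-GFP (74.4), the last 2 overlapping as well. For Neat1 (81.0 to 139 CPM), Kcnq1ot1 (8.26 to 17.0 CPM), Snhg11 (3.49 to 13.8 CPM) and Miat (0.144 to 0.608 CPM) each neighbouring pair of groups overlapped. For Meg3 (2.49 to 9.83 CPM) the CD11b AAV-A2A group lay below both AAV-GFP groups and overlapped the ACSA-2 AAV-A2A group.

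Other hosts of small nucleolar RNAs showed where Gas5 and Snhg11 stand among their kind. Of 15 further hosts in the counts, 14 were tested in ACSA-2 libraries and 14 had a log2 FC above 0 (median 0.47, 0.02 for all genes), while in CD11b libraries 14 of 15 were below 0 (median -0.70, -0.05 for all genes). None was called in either fraction, and DESeq2 called 0 in both. An unadjusted p under 0.05 was held by 1 of 14 (ACSA-2) and 0 of 15 (CD11b), beside 13% and 16% of all genes. Snhg20, the most abundant, was 54.0, 31.9 and 37.3 CPM in AAV-GFP and 86.4, 92.2 and 42.6 CPM in AAV-A2A ACSA-2 libraries (log2 FC 0.87, adjusted p = 0.244) and had a log2 FC of -0.69 in CD11b libraries (adjusted p = 0.399). Snhg5 had log2 FC of 0.46 and -0.70 (adjusted p = 0.777 and 0.431). With each library left out in turn, 10 to 15 hosts were above 0 in the ACSA-2 and 0 to 3 in the CD11b fraction. Without the choroid plexus rich libraries 4 of the 15 hosts were above 0 in the CD11b fraction.

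**Figure D5:**
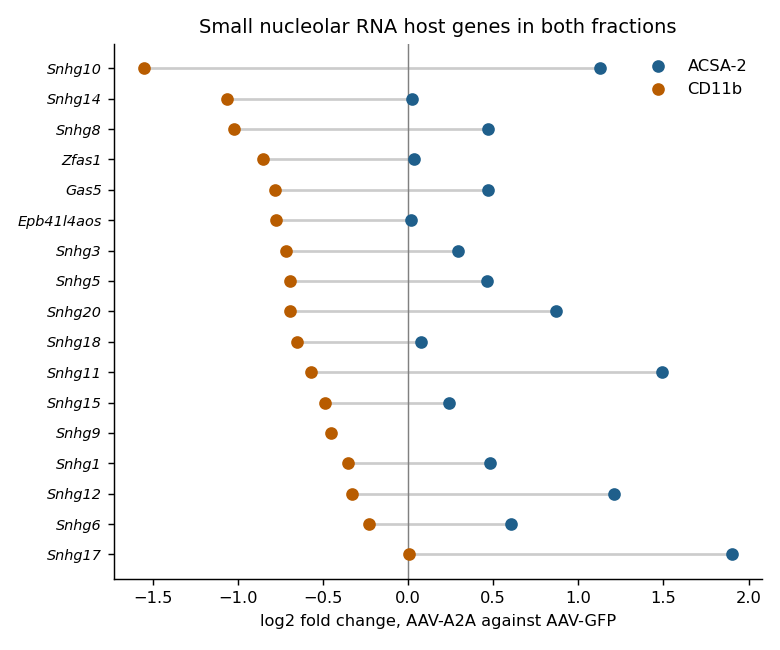
Log2 fold change of AAV-A2A against AAV-GFP for Gas5, Snhg11 and 15 other hosts of small nucleolar RNAs, in ACSA-2 and CD11b libraries. The ACSA-2 points lie from 0.01 to 1.91 and the CD11b points from -1.55 to 0.01, and none was called.

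Of 21 other long noncoding RNAs on the list, 16 were tested in ACSA-2 and 17 in CD11b libraries. 10 of 16 (median 0.06) and 6 of 17 (median -0.80) had a log2 FC above 0, and 0 were called in either. 2 of 16 and 4 of 17 had an unadjusted p under 0.05, beside 13% and 16% of all genes. DESeq2 called Tug1 and Peg13 in ACSA-2 libraries, where it called 1263 of the 27866 genes it was given. Pantr1, the most abundant, was a fraction marker, at 423 and 388 CPM in the ACSA-2 groups and 2.79 and 0.965 CPM in the CD11b groups. Tug1 went the other way from Malat1, with 35.4, 25.6 and 26.9 against 18.8, 15.1 and 14.5 CPM in ACSA-2 libraries (log2 FC -0.83, adjusted p = 0.143 with edgeR and 0.0193 with DESeq2) and 22.5, 16.8 and 27.1 against 36.2, 123 and 65.8 CPM in CD11b libraries (1.73, adjusted p = 0.28). Its difference between fractions was 2.62 (adjusted p = 0.0615). Peg13, noticed after its values were seen, had a like course (log2 FC -1.12 and 1.65, adjusted p = 0.153 and 0.284).

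The protein partners of Malat1 and Neat1 gave no call with edgeR in either vector comparison, and DESeq2 called Pnn and Luc7l3 higher in ACSA-2 libraries (log2 FC 0.84 and 0.89, adjusted p = 0.00751 and 0.0155). Of the nuclear speckle proteins 5 of 16 and 0 of 16 had an unadjusted p under 0.05, of the paraspeckle proteins 0 of 14 and 1 of 14. Of all genes, 13% and 16% did. Of 16 nuclear speckle proteins, 11 had a log2 FC above 0 in ACSA-2 (median 0.17) and 6 in CD11b libraries (median -0.09), the most abundant, Srrm2 and Srsf5, being at -0.25 and 0.31 in ACSA-2 libraries (adjusted p = 0.772 and 0.51). Of 14 paraspeckle proteins, 8 lay above 0 in each fraction, with Hnrnpk at -0.04 and 0.27 and Hnrnpm at 0.20 and 0.30 in ACSA-2 and CD11b libraries. Of 10 factors of nonsense-mediated decay, the pathway that degrades Gas5, 4 were above 0 in ACSA-2 and 8 in CD11b libraries. With edgeR 0 were called, and 2 and 4 factors of this pathway had an unadjusted p under 0.05 (13% and 16% of all genes). Upf1, its central helicase, was 23.8, 24.9 and 28.5 against 15.8, 13.02 and 10.97 CPM in ACSA-2 libraries (log2 FC -0.93, adjusted p = 0.104). In CD11b libraries it was 29.9, 40.4 and 54.5 against 67.2, 286 and 171 CPM (2.06, adjusted p = 0.28), and the groups did not overlap in either fraction. DESeq2 called Upf1 in both (adjusted p = 0.00547 and 0.044). In all, DESeq2 called 1263 of the 27866 genes it was given in ACSA-2 libraries and 455 of 30359 in CD11b libraries. Upf3a had log2 FC of -0.01 and -0.69 (adjusted p = 0.992 and 0.307).

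Genes of the imprinted domains around Meg3 and Kcnq1ot1 were not called in either vector comparison, with edgeR or DESeq2. In the Dlk1-Dio3 domain 4 of 7 genes were tested in ACSA-2 and 3 in CD11b libraries. Of these, 2 and 0 had an unadjusted p under 0.05, beside 13% and 16% of all genes. Wdr25 and Begain, the most abundant, had log2 FC of -1.87 and -1.86 in ACSA-2 libraries (adjusted p = 0.308 and 0.352), where Meg3 was at 0.62, and 0.28 and -1.98 in CD11b libraries. In the Kcnq1 domain 10 and 11 of 12 genes were tested, 5 and 6 lay above 0 and 0 and 1 had an unadjusted p under 0.05. Cd81, a tetraspanin, was the most abundant at 4187 and 4653 CPM in the ACSA-2 groups (log2 FC 0.18, adjusted p = 0.793), and Nap1l4 was at -0.18 (adjusted p = 0.779). Kcnq1 itself was at 0.333 to 3.05 CPM in the group means.

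Genes within 50 kb of a member were read beside it. Ralgapb, 23703 bases from Snhg11, was 88.3, 96.1 and 83.0 CPM in AAV-GFP and 33.4, 17.4 and 16.5 CPM in AAV-A2A ACSA-2 libraries (log2 FC -1.97, SE 0.287, adjusted p = 0.00567) and was called lower in AAV-A2A, while Snhg11 was not called. Zbtb37, which overlaps the Gas5 gene on the other strand without sharing exons, was 40.2, 38.9 and 20.2 against 7.05, 1.11 and 7.34 CPM and just missed the threshold (log2 FC -2.65, SE 0.619, adjusted p = 0.0526). In CD11b libraries Ralgapb and Zbtb37 had log2 FC of 0.08 and -0.0034.

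Genes were ranked by the likeness of their log2 CPM to each member over the 12 libraries, among the 11628 genes whose mean over them reached 5 CPM. The libraries share fraction, vector and set of animals, so the coefficients describe these libraries only. Malat1 was most like Fam173a (Pearson r = 0.96, and 0.97 and 0.92 within the 6 ACSA-2 and the 6 CD11b libraries), Mir99ahg, another long noncoding RNA (0.94), and Tsr3 (0.92). Fam173a was 67.4, 54.5 and 50.5 CPM against 74.8, 94.7 and 69.2 CPM in ACSA-2 libraries and averaged 59.0 and 42.7 CPM in the CD11b groups, a far smaller range than that of Malat1. Gas5 was most like 2510002D24Rik (0.90), Napb (0.89) and Sertad1 (0.89), and Snhg11 most like Ccser2 (0.93), Ttll3 (0.91) and Wasl (0.87). Kcnq1ot1 was most like mt-Nd1 (0.87), Utrn (0.86) and mt-Nd5 (0.85), the first and last encoded in mitochondria. Meg3 was most like Mapk15 (0.86), Catip (0.86) and Wdr60 (0.84), Neat1 most like 5430403G16Rik (0.84), Bag4 (0.80) and Fbxo30 (0.78), and Miat most like Pde6g (0.77), Nudt12 (0.77) and Ttc26 (0.77). Among the members themselves, Malat1 and Gas5 varied most alike in CD11b libraries (r = 0.94, and 0.85 in ACSA-2), and Malat1 and Neat1 little (0.33 and 0.31 within the fractions).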

How the data were processed

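Cells were sorted from hippocampus with magnetic beads and their full-length cDNA was sequenced in single-end mode. The authors trimmed reads with cutadapt 1.10, aligned them to mm10 with STAR 2.5.3 and counted unique, non-ambiguous reads per Ensembl gene with HTSeq 0.6.1p1 in union mode. The strand setting is not given in the sources used here. The deposited values are raw counts per gene, one table per fraction, without molecular identifiers. The limit given for the library without Miat counts covers counting error only. The intervals come from the edgeR fits and include the spread between libraries of a group. Of 27866 (ACSA-2) and 30359 (CD11b) genes, 27813 and 30289 were found in GENCODE vM21.

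Groups came from the sample labels alone. Replicate libraries of a group differed beyond sampling noise. They carry separate animal numbers, but pooling is not described, so p-values measure the spread between these libraries. AAV-A2A was compared with AAV-GFP in each fraction (6 libraries each), and the fractions, and the difference of vector effects, in a fit of all 12, in R 4.3.3 with edgeR 4.0.16, whose quasi-likelihood F test was run robustly after TMM scaling and filterByExpr, and Benjamini-Hochberg adjustment over all tested genes. Calls needed a log2 FC beyond 0.32 in either direction at an adjusted p under 0.05. Levels are CPM with TMM factors over 12 libraries, divided by exon length where genes are compared. Alternatives were DESeq2 1.42.0, limma-voom (limma 3.58.1), other scalings and filters, each library left out, a joint fit, and, chosen after seeing the data, fits without or with a term for choroid plexus rich libraries and the class of all long noncoding genes. Scripts were tested on simulated data.

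Named genes were the 7 members, Adora2a, the 2 most abundant and all called genes of each list, tested genes within 50 kb and the 3 genes most like each member; Peg13, Pnn and Luc7l3 were added after their values were seen. Members and lists were chosen with earlier results of these data known. A gene that this rule names is not reported here.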

Additional observations from a re-analysis of the deposited data

Results flagged for a closer look

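Malat1 was noted because every AAV-A2A library lay above every AAV-GFP library in the ACSA-2 fraction and below every one in the CD11b fraction. The difference between the vector effects (CD11b less ACSA-2) was -3.50 on the log2 scale (SE 0.757), and the test of this difference missed the threshold with edgeR (adjusted p = 0.0621). Over the 20 alternatives it ran from -3.84 to -2.70, with adjusted p from 5.08e-04 to 0.267, and passed in 4. Of 14961 genes tested in both fractions, 3.54% had groups without overlap in both and opposite in direction, and 1.27% were higher in ACSA-2 and lower in CD11b AAV-A2A libraries, as Malat1 was. The choroid plexus, erythrocyte and neuronal markers and the mitochondrial counts given above move with some of the same libraries, and their part in the difference was not tested.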

How the results depend on the processing

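No paired analysis was possible because the groups share no replicate numbers. The 553 genes called in ACSA-2 libraries became 1263 with DESeq2 and 156 in the joint fit of 12 libraries, and 272 to 448 with a library left out. The 0 calls in CD11b libraries became 455 with DESeq2 and 3 without the choroid plexus rich libraries. The 75 calls for the difference between fractions became 1695 with DESeq2, 10 with median-of-ratios scaling, 0 with library totals, 345 with at least 10 counts in every library and 0 without the choroid plexus rich libraries, and 0 to 1286 with a library left out. Malat1 kept its direction in the vector effects and in their difference under every alternative run, and so did Gas5. The log2 FC values below changed sign under an alternative, and none of them was called under any of the alternatives. With a library left out, the ACSA-2 effect of Neat1 was -0.91 to 0.29, of Meg3 -0.013 to 1.08 and of Kcnq1ot1 -0.36 to 0.92, and the CD11b effect of Neat1 -0.81 to 0.23. The AAV-GFP fraction difference was -0.32 to 0.078 for Malat1, -1.03 to 0.29 for Meg3, -3.15 to 0.28 for Miat and -0.51 to 0.48 for Snhg11. The AAV-A2A fraction difference was -0.35 to 2.43 for Miat and -0.27 to 1.01 for Kcnq1ot1, and the difference of effects -0.72 to 0.49 for Neat1 and -3.36 to 0.064 for Miat. Neat1 in ACSA-2 was 0.015 with library totals. Without the choroid plexus rich libraries the CD11b effect was 1.196 for Snhg11 (0.37 with a term for them) and 0.37 for Neat1, whose difference between fractions was 0.44, and 0.059 with limma-voom. Snhg11 between AAV-GFP fractions was 0.16 with limma-voom. The cause was not tested. Precision was limited by 3 libraries a group and, for Miat, by 0 to 50 counts.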
